A study of Mus musculus with 12 samples.

Results

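Hepatokines are proteins that the liver secretes and that act on metabolism in the liver itself or in other organs. The 8 genes described here, Fgf21, Gdf15, Inhbe, Inhbc, Angptl4, Lect2, Ahsg and Fetub, were selected by name from the 24062 genes in the count tables, and they were chosen with the results of this diet comparison known, so their differences between diets are given as a description. The data were liver RNA-seq libraries of 12 female C57BL/6J mice, which arrived at 6 weeks of age, were acclimated for 2 weeks and were moved from chow to the control diet for 3 days. For the next 10 days, 6 of these mice (control, replicates 1 to 6) stayed on the control diet, which draws 15% of its calories from fat, 65% from carbohydrate and 20% from protein. The other 6 mice (BIBB-515, replicates 6 to 11) received the matched diet with BIBB-515, an inhibitor of lanosterol synthase in the cholesterol pathway, at 55 mg/kg body weight. All mice were of an inbred strain with no transgene, each library came from 1 mouse, and the study had 11 mice per diet. The feeding state and hour at which the livers were taken are not given in the sources used here.

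Fgf21 is a fasting- and diet-responsive hormone that signals through FGF receptors together with the co-receptor beta-klotho, and in the liver its gene is known to respond to PPAR-alpha, to ChREBP and to the stress factor ATF4. Gdf15 is a stress-induced member of the TGF-beta superfamily that acts on the brain receptor GFRAL to lower food intake. Inhbe and Inhbc encode the activin E and activin C subunits, which are made mainly in hepatocytes, Angptl4 inhibits lipoprotein lipase, and Lect2 is a secreted protein that binds MET and TIE1. Ahsg and Fetub encode fetuin-A and fetuin-B, abundant plasma proteins of the cystatin superfamily, of which fetuin-A binds mineral and inhibits the insulin receptor.

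The gene counts of a library summed to 22764819 to 27914647 with the control diet and to 24223939 to 31058370 with BIBB-515. The unit is CPM, a count relative to the TMM-scaled library size, and levels are compared between genes only as TPM, which also divides by exonic length. A gene is called where its FDR, the Benjamini-Hochberg adjusted p of edgeR's quasi-likelihood test over the 12481 genes that reached 1 CPM in 2 or more mice, is under 0.05. All 8 hepatokine genes passed that filter. The 10 hepatocyte markers examined summed to 147600 to 164630 CPM in the control mice and to 111940 to 127810 CPM with BIBB-515. Most of each sum was Alb alone, with a mean of 120090 CPM in the control mice and 90923 CPM with BIBB-515, so the sums say little about the other markers. Called lower with BIBB-515 were 3 of them, namely Ttr, Alb and Pck1, which is 30% called beside 13.7% of all tested genes. All 10 had a log2 fold change below zero, with a median of -0.24, the same direction as Fgf21, Inhbc and Ahsg, and the part of this in those differences was not tested. Ass1, another of these markers, had between 12 and 43 counts in the gene table and between 35009 and 81227 in the table of primary alignments. The Ass1 row in the gene table therefore says little about its level, yet it is counted in the 10 below zero and in their median. Of the tested markers, 7 of Kupffer cells, 5 of leukocytes, 5 of bile duct and 6 of endothelium, 0 were called with edgeR and 1 had an unadjusted p under 0.05, the bile duct marker Spp1, which was called with DESeq2 and the likelihood ratio test. Among all 12481 tested genes, 3713 had an unadjusted p under 0.05 with edgeR. The marker of lowest p in each list was C6 at a log2 fold change of -0.29, Ptprc at -0.25, Spp1 at 0.44 and Stab2 at -0.16. Of the 8 stellate cell markers, Lrat and Dcn were lower, with log2 fold changes of -0.81 and -0.27, which is 25% called beside 13.7% of all tested genes. Among the 8, 6 were below zero and 2 above it, with a median log2 fold change of -0.20. In whole liver, fewer cells of a type and less RNA per cell cannot be told apart.

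The sequences around the transcription starts are shown for Fgf21, Gdf15 and Ahsg, whose values did not overlap between diets, and for the neighboring genes Inhbe and Inhbc, whose levels moved together between mice. Each runs 5' to 3' from 250 bases before to 50 bases after a RefSeq start, and RefSeq windows of the build GRCm38.p6 were found for 7 of the 8 genes. Capitals mark letters that match 1 of 6 short motifs, searched on both strands.
Fgf21 (chr7:45615441-45615740, minus strand): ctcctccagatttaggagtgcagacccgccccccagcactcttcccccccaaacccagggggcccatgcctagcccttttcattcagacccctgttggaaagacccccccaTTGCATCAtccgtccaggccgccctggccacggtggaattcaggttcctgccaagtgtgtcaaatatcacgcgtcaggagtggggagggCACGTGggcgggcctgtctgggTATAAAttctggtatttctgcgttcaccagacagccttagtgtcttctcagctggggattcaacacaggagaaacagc
Gdf15 (chr8:70632046-70632345, minus strand): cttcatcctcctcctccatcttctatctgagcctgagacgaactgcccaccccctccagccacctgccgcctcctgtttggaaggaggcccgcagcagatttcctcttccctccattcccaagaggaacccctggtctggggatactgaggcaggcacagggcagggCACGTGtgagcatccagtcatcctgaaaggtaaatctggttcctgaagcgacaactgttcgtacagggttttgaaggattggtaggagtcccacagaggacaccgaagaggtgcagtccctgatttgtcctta
Inhbe (chr10:127351799-127352098, minus strand): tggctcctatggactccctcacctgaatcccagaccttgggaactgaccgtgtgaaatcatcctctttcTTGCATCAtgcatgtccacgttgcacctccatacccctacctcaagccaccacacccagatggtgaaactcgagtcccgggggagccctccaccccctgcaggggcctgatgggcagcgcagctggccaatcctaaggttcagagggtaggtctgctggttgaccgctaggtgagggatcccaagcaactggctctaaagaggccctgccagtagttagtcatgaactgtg
Inhbc (chr10:127370499-127370798, minus strand): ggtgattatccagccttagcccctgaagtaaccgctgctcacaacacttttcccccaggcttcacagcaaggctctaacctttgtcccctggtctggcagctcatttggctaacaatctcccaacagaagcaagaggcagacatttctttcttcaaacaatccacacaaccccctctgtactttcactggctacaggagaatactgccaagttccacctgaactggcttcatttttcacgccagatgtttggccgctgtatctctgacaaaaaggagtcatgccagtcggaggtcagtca
Ahsg (chr16:22891765-22892064, plus strand): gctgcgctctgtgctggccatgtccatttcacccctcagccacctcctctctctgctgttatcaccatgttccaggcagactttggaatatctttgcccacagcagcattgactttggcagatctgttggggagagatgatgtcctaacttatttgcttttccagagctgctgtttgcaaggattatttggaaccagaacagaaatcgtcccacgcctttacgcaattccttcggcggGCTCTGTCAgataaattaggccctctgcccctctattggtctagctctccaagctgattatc

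In the Fgf21 window, a TATA box (TATAAA) lay at positions -28 to -23, counted from the start site, and the letters CACGTG, an E-box of the kind found in ChREBP sites, lay at -50 to -45. The composite element of ATF4 (TGATGNAA, here on the opposite strand) lay at -139 to -132. The Inhbe window held the same ATF4 letters at -181 to -174, and the Gdf15 window held a CACGTG at -83 to -78. Of all 32851 RefSeq windows of this length, 3.97% held the ATF4 letters, 7.15% held CACGTG and 13.6% held TATAAA. The Ahsg window matched the antioxidant response element TGACNNNGC on the opposite strand at -12 to -4, letters that 12.4% of all windows held. The cAMP response element TGACGTCA (1.79% of windows) and 2 copies of the nuclear receptor half-site AGGNCA spaced by 1 base (0.381% of windows) matched none of the 7 windows, and the Inhbc and Lect2 windows matched none of the 6 motifs. The windows of Fgf21 and Ahsg started at the first base of the deposited gene models, and that of Inhbc at 4 bases and that of Inhbe at 76 bases upstream of it. For Gdf15, the nearer of 2 RefSeq starts lay 460 bases upstream of the deposited model, so its window shows an upstream start and not the one counted here.

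Fgf21 was lower with BIBB-515 and Gdf15 was higher. Fgf21 lies on chromosome 7 from 45613890 to 45615490 (mm10, minus strand) with 3 exons. Its transcript was lowest at 5.73 CPM in control mouse 3, had a median of 10.0 CPM and was highest at 19.5 CPM in control mouse 6. With BIBB-515 the lowest value was 1.82 CPM in mouse 8, the median 3.41 CPM and the highest 4.35 CPM in mouse 7. Every BIBB-515 mouse was therefore below every control mouse, and the control group spread more widely, with a coefficient of variation of 42.2% against 26.6%. The mean went from 11.5 ± 4.83 CPM to 3.28 ± 0.875 CPM (SD, n = 6 for both), which is 3.48-fold lower, and the log2 fold change was -1.80 with a standard error of 0.26 (FDR 0.000508, edgeR). It was the 17th largest fall among the 12481 tested genes. The counts behind these values were small, between 51 and 484 reads per library, and none of its 902 words of 50 bases occurred in a transcript of another gene. All 3 Fgf21 exons were lower in the exon table, with log2 ratios of the group means of -1.62 for exon 1, -1.65 for exon 2 and -1.94 for exon 3.

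Fut1, which encodes a fucosyltransferase and starts 2115 bases from the Fgf21 start on the opposite strand, was picked out after its values were seen. It lay between 0.832 and 1.53 CPM in the control mice and from 0.341 to 0.526 CPM with BIBB-515, and its log2 fold change was -1.33. No BIBB-515 mouse reached 1 CPM, so Fut1 passed the filter on low counts only through the control mice, and its FDR is not given. The commands behind the counts set no strand, but the exons of Fut1 and Fgf21 do not overlap in the deposited annotation.

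Gdf15 lies on chromosome 8 from 70629394 to 70631635 (minus strand) with 2 exons. Among the control mice it ranged from 1.57 CPM to 3.98 CPM in mouse 2, with a median of 2.15 CPM. Among the BIBB-515 mice the lowest value was 6.21 CPM in mouse 7, the median was 10.7 CPM and the highest were 19.1 CPM in mouse 10 and 21.4 CPM in mouse 11. The groups did not overlap, and here the BIBB-515 group spread more widely, with a coefficient of variation of 50.1% against 36.0%. Gdf15 went from 2.35 ± 0.845 CPM to 12.6 ± 6.29 CPM (SD, n = 6 each), a 5.30-fold higher level and a log2 fold change of 2.41 with a standard error of 0.32 (FDR 0.000243, edgeR). This was the 21st largest rise of all tested genes. The log2 ratios of its exons were 2.51 and 2.39, and its counts lay between 39 and 523 per library. Without BIBB-515 mouse 11 the log2 fold change was 2.19, the lowest of the 12 fits that each left out 1 mouse.

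**Figure D1:**
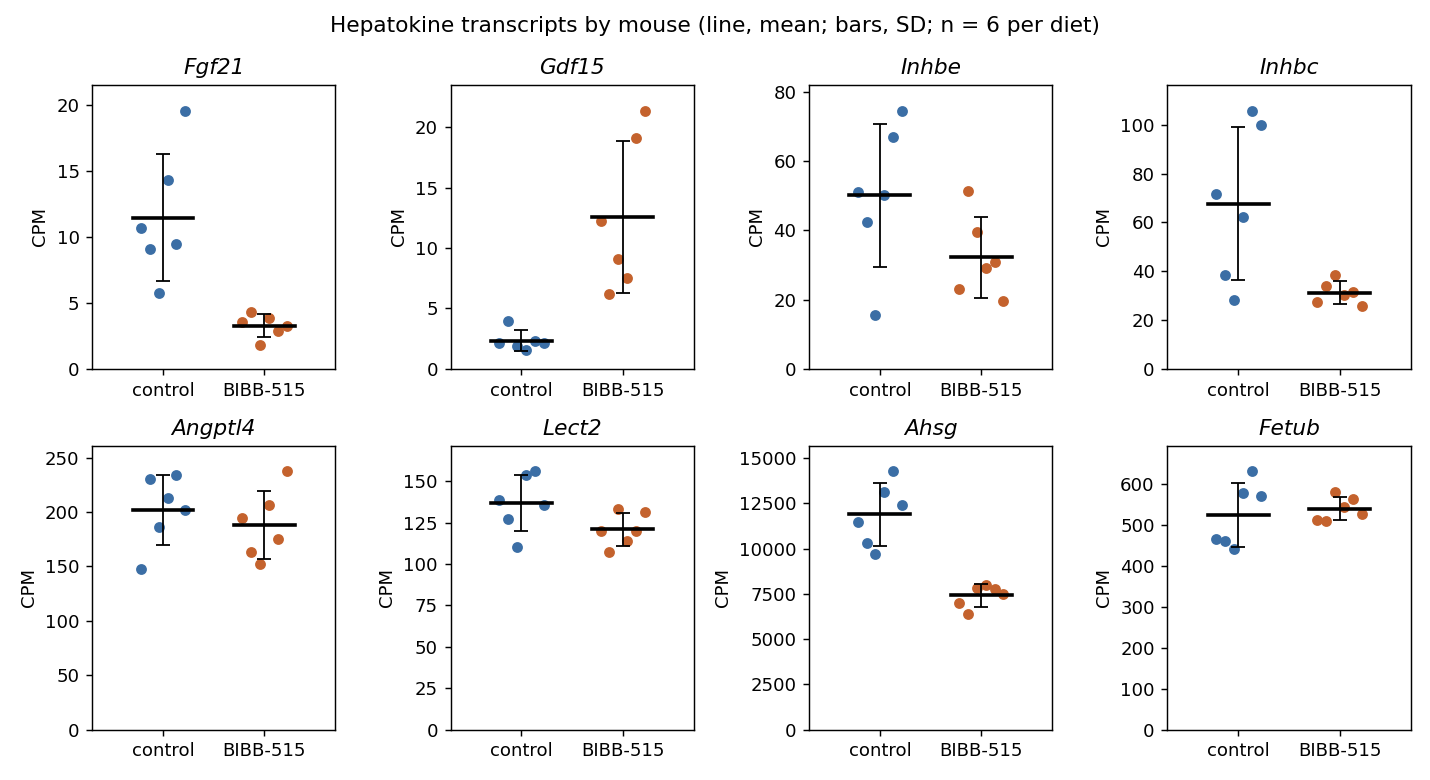
Each panel plots 1 gene in CPM from a zero baseline, with a point for each of the 6 control and 6 BIBB-515 mice, a line at the mean and bars of 1 SD. Fgf21 and Ahsg sit lower and Gdf15 sits higher in every BIBB-515 mouse than in any control mouse, while the points of the other 5 genes overlap between diets.

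Both activin subunit genes were more variable among the control mice than the fetuins were, and only Inhbc was called. Inhbc lies on chromosome 10 from 127356326 to 127370544 and Inhbe from 127349402 to 127351772, both on the minus strand with 4553 bases between them. In the control mice Inhbc ran from 28.4 CPM in mouse 3 through a median of 66.9 CPM to 106 CPM in mouse 5. In the BIBB-515 mice it ran from 25.6 CPM through 30.8 CPM to 38.4 CPM. Control mouse 3 fell inside the BIBB-515 range, and the other 5 control mice were above it, with mouse 2 the closest at 38.6 CPM. The mean was 67.8 ± 31.4 CPM against 31.2 ± 4.61 CPM (SD, n = 6 per diet), and the log2 fold change was -1.12 with a standard error of 0.26 (FDR 0.012, edgeR).

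Inhbe ran from 15.5 CPM in control mouse 3 through a median of 50.6 CPM to 74.5 CPM in control mouse 6. With BIBB-515 it ran from 19.6 CPM in mouse 11 through 30.0 CPM to 51.4 CPM in mouse 7. The lowest of all 12 values belonged to a control mouse, and the log2 fold change of -0.63 (standard error 0.30) had an FDR of 0.174 with edgeR. Of the 12 fits that each left out 1 mouse, 1 gave a call, that without control mouse 3, with a log2 fold change of -0.81 and an FDR of 0.0228. In the other 11 the gene stayed uncalled, with an FDR of up to 0.321. With 1 surrogate variable in the model the FDR was 0.0384 and the log2 fold change -0.54. The other 7 alternatives that kept all mice gave no call, with FDRs of 0.215 with DESeq2 and 0.277 with limma-voom. Of the 5264 words of 50 bases in the Inhbe transcripts, 0.38% occurred in other genes, and of Inhbc none did.

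After the mean of each diet was taken out, the log2 CPM of Inhbe and Inhbc had a Pearson correlation of 0.87 over the 12 mice, 0.91 within the control mice and 0.87 within the BIBB-515 mice. The points share their libraries and their scaling, and the value is a description. The ratio of Inhbc to Inhbe lay between 0.913 and 1.83 with the control diet and between 0.662 and 1.31 with BIBB-515. The log2 fold change of Inhbc differed from that of Inhbe by -0.48.

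Ahsg was lower with BIBB-515, whereas its neighbor Fetub was nearly level. Ahsg lies on chromosome 16 from 22892015 to 22899451 and Fetub from 22918382 to 22939768, both on the plus strand with 18930 bases between them. Ahsg had the 6th highest mean CPM of all tested genes in the control mice. It ran from 9701 CPM in control mouse 3 through a median of 11959 CPM to 14257 CPM in control mouse 5, and with BIBB-515 from 6361 CPM through 7643 CPM to 8016 CPM. No BIBB-515 mouse reached the lowest control mouse. The mean was 11883 ± 1719 CPM against 7410 ± 623 CPM (SD, n = 6 per diet), and the log2 fold change was -0.68 with a standard error of 0.11 (FDR 0.000873, edgeR). Along the transcript the 10 exon features of Ahsg had log2 ratios between -0.69 and -0.62, and each of them was without overlap between diets. Features 2 to 4 share a start and features 8 and 9 share an end, so these count many of the same reads.

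A second gene model, LOC102632430 on the opposite strand, overlaps 62 bases of the Ahsg exons, and reads on both genes were left out of the gene table. The table of primary alignments, which counts such reads, held 334479 more Ahsg reads over the 12 mice, 10.1% of its Ahsg total. The log2 fold change in that table was -0.67.

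Fetub ran from 442 CPM through a median of 519 CPM to 631 CPM in the control mice and from 512 CPM through 536 CPM to 582 CPM in the BIBB-515 mice. The BIBB-515 values lay wholly inside the control range, and the log2 fold change was 0.04 with a standard error of 0.09 (FDR 0.804, edgeR). The ratio of Ahsg to Fetub, which needs no scaling between libraries, lay between 21.8 and 24.6 with the control diet and between 12.4 and 14.7 with BIBB-515. The log2 fold changes of the neighbors thus differed by -0.72. Their diet-centred log2 CPM had a Pearson correlation of 0.90 over the 12 mice, 0.96 within the control mice and 0.77 within the BIBB-515 mice. These values share libraries and scaling and are descriptions. Within a diet the fetuin transcripts tended to be high and low in the same mice, less closely with BIBB-515, and between diets their ratio was different.

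**Figure D2:**
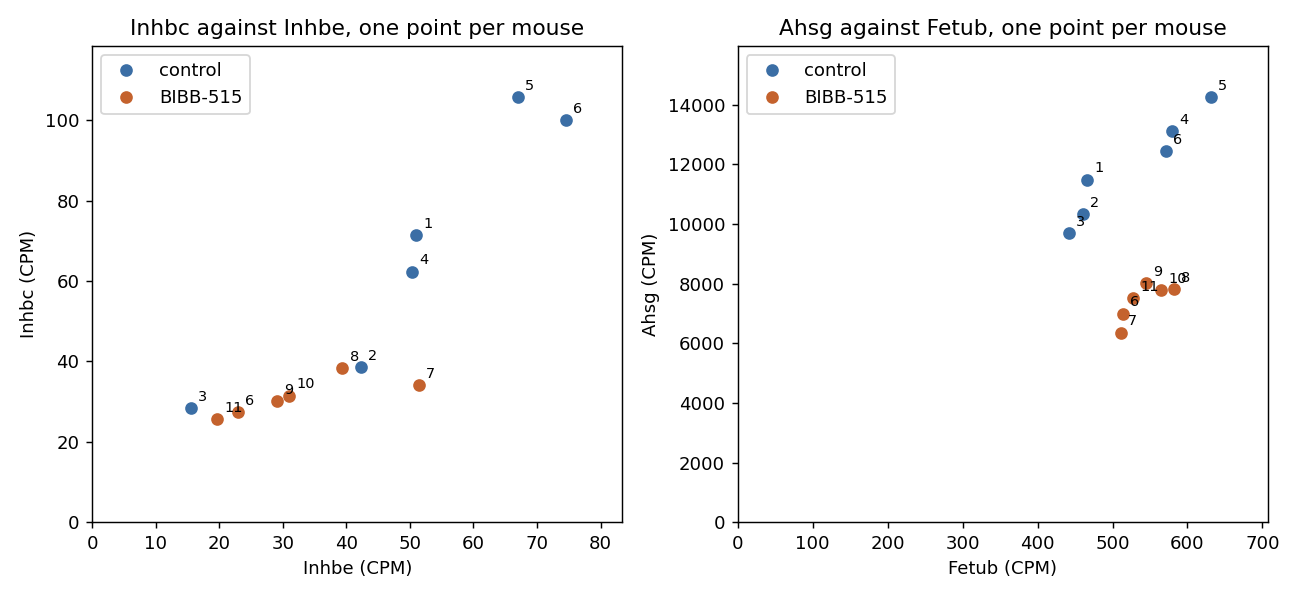
The left panel plots Inhbc against Inhbe and the right panel Ahsg against Fetub, both in CPM, with 1 point per mouse labelled by its replicate number. The Inhbe and Inhbc points of the diets lie close together at lower Inhbe levels and apart at higher ones. BIBB-515 mouse 7 had Inhbe at 51.4 CPM and Inhbc at 34.0 CPM, and control mouse 1 had 50.9 CPM and 71.5 CPM. In the right panel the BIBB-515 mice lie below the control mice in Ahsg at like values of Fetub.

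Hrg, which encodes histidine-rich glycoprotein and is the next gene after Fetub on the same strand, was higher with BIBB-515 without overlap, from 689 ± 89.5 CPM to 885 ± 87.0 CPM (SD, n = 6 each), with a log2 fold change of 0.36 (FDR 0.0231, edgeR). The neighbors Ahsg, Fetub and Hrg thus had a called fall, no call and a called rise. Among the 5 tested genes of the cystatin-family list, which holds Hrg, the kininogens and cystatins, 2 were higher and 0 lower, which is 40.0% called beside 13.7% of all tested genes, with a median log2 fold change of 0.03. The other was Cstb, which encodes the protease inhibitor cystatin B, with a log2 fold change of 0.26 (FDR 0.0241, edgeR). Leaving out a mouse gave 1 or 2 calls: Hrg lost its call without BIBB-515 mouse 8 (FDR 0.0559) or mouse 10 (FDR 0.0556), and Cstb without control mouse 1 (FDR 0.0529) or BIBB-515 mouse 11 (FDR 0.0536).

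Angptl4 and Lect2 were not called. Angptl4, on chromosome 17 from 33774900 to 33781575, ran from 147 CPM through a median of 207 CPM to 234 CPM in the control mice and from 152 CPM through 185 CPM to 237 CPM in the BIBB-515 mice. Its highest value was in a BIBB-515 mouse and its lowest in a control mouse, and the log2 fold change was -0.10 with a standard error of 0.12 (FDR 0.624, edgeR). Its 7 exons had log2 ratios between -0.16 and -0.06. Lect2, on chromosome 13 from 56542460 to 56548538, ran from 110 CPM through 137 CPM to 156 CPM in the control mice and from 107 CPM through 120 CPM to 133 CPM in the BIBB-515 mice. All 6 BIBB-515 mice were below the control mean of 137 CPM, but the groups overlapped, and the log2 fold change of -0.18 (standard error 0.09) had an FDR of 0.182 with edgeR.

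Per length, Ahsg was by far the most abundant of the 8 transcripts, at 14786 ± 1512 TPM in the control mice (SD, n = 6). Fetub followed at 554 ± 58.9 TPM, Lect2 at 295 ± 27.4 TPM and Angptl4 at 201 ± 29.6 TPM. Inhbc at 64.1 ± 27.2 TPM, Inhbe at 43.8 ± 16.8 TPM and Fgf21 at 22.7 ± 9.10 TPM formed the next group, in which the ranges of neighbors overlapped. Gdf15 was lowest at 4.11 ± 1.56 TPM. With BIBB-515 the order of the first 6 genes was the same, whereas Gdf15 at 22.2 ± 10.6 TPM stood above Fgf21 at 6.72 ± 1.88 TPM, with no overlap of their ranges, and the range of Gdf15 overlapped that of Inhbe.

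In all, 4 of the 8 hepatokine genes were called, beside 13.7% of all tested genes, with 1 higher beside 7.18% and 3 lower beside 6.48%. For 3 of the 8 the diets did not overlap, beside 7.07% of all tested genes. Their median log2 fold change was -0.41, and that of all tested genes was -0.01. Because the genes were chosen with these results known, nothing is read from these shares. Control mouse 3 had the lowest value of its group for 6 of the 8 genes, and control mouse 5 the highest for 5 of the 8.

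**Figure D3:**
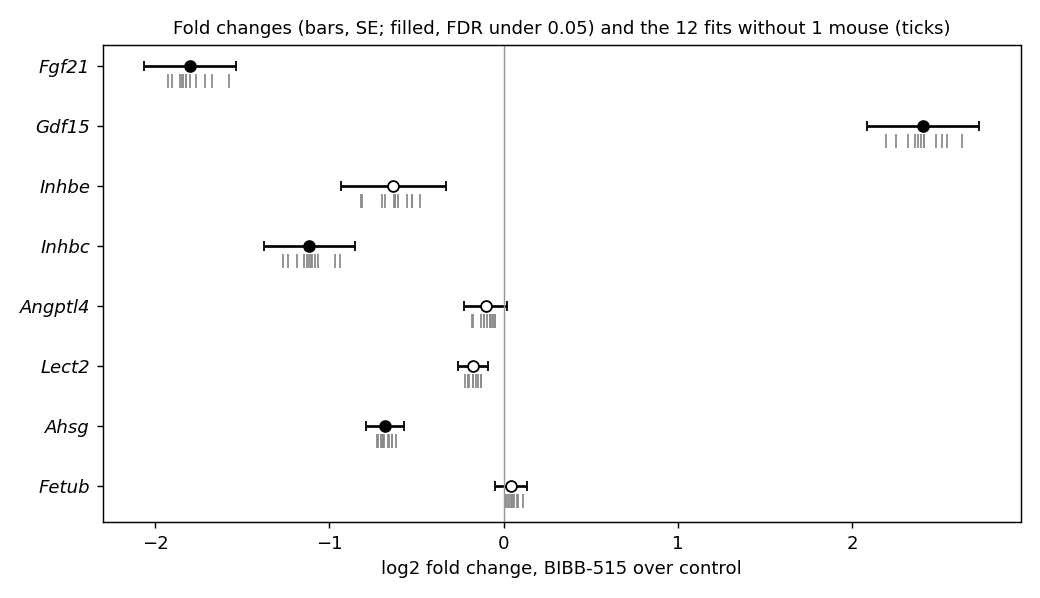
Points give the log2 fold change of each hepatokine gene, BIBB-515 over control, with bars of 1 standard error, filled where the FDR was under 0.05, and grey ticks give the 12 fits that each left out 1 mouse. No tick lies on the other side of zero from its point, with Fgf21 from -1.93 to -1.57, Gdf15 from 2.19 to 2.63, Inhbe from -0.82 to -0.48 and Inhbc from -1.27 to -0.94.

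Of 23 tested genes for other liver-secreted hormones and carriers, 3 were higher and 3 lower with BIBB-515, which is 26.1% called beside 13.7% of all tested genes, and their median log2 fold change was -0.11. The largest rise was that of Orm2, an acute-phase orosomucoid, from 5.86 ± 0.827 CPM to 13.2 ± 2.97 CPM (SD, n = 6 each), with a log2 fold change of 1.17 (FDR 0.000162, edgeR) and no overlap. Its close relative Orm1 had a log2 fold change of 0.13 with an FDR of 0.503. Tsku, which encodes the secreted protein tsukushi, had a log2 fold change of 0.71 (FDR 0.00442). Igf1, the growth hormone-dependent growth factor, fell from 711 ± 192 CPM to 408 ± 74.0 CPM (SD, n = 6 each) with a log2 fold change of -0.80 (FDR 0.00879, edgeR). Ttr, the thyroxine and retinol-binding protein carrier, fell by 0.49 on the log2 scale (FDR 0.00391) without overlap, and Fgl1 was the third gene to fall. Angptl8, listed as Gm6484 in the tables, was at -0.56 with an FDR of 0.0671.

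Of 24 tested receptors, antagonists, signal transducers, targets and other partners of the hepatokines, 0 were higher and 3 lower with edgeR's quasi-likelihood test. That is 12.5% called beside 13.7% of all tested genes, and the median log2 fold change was -0.12. The list also holds related activin subunit genes, Inhba among them. Of these 24 genes DESeq2 called 0 higher and 6 lower. At an unadjusted p under 0.05 with edgeR, 1 was higher and 7 lower, beside 3713 of the 12481 tested genes in either direction. Inhba, the activin A subunit gene, fell from 7.72 ± 3.36 CPM to 3.11 ± 1.05 CPM (SD, n = 6 each), with a log2 fold change of -1.30 (FDR 0.00811, edgeR). Acvr2a, an activin type II receptor, and Fgfr2, an FGF receptor, had log2 fold changes of -0.31 (FDR 0.0224) and -0.43 (FDR 0.0383). Klb, the co-receptor for Fgf21, was at -0.41 with an FDR of 0.0728, and Fgfr4, the main FGF receptor of hepatocytes, at -0.23 with an FDR of 0.0765. Gfral, the Gdf15 receptor of the brainstem, had 0 counts in every library. Without BIBB-515 mouse 7 or without BIBB-515 mouse 11, 1 gene of this list was called, and without control mouse 2 or control mouse 4 it was 5. Acvr2a lost its call without BIBB-515 mouse 7 (FDR 0.0507), mouse 8 (FDR 0.0532) or mouse 11 (FDR 0.0505), and Fgfr2 lost it in 7 of the 12 fits that left out a mouse, with an FDR of at most 0.0817.

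Regulators known for Fgf21, Gdf15 and Angptl4 were followed through lists of their other target genes. Of 28 tested genes under known PPAR-alpha control, 0 were higher and 2 lower, which is 7.14% called beside 13.7% of all tested genes. The median log2 fold change was -0.15, with 21 of the 28 below zero. At an unadjusted p under 0.05 with edgeR, 1 was higher and 6 lower, beside 3713 of the 12481 tested genes in either direction. The called genes were Cyp4a31, a fatty acid hydroxylase, at -0.86 (FDR 0.0431) and Fabp1, the liver fatty acid-binding protein, at -0.68 (FDR 0.0442). Neither call was firm, since limma-voom gave FDRs of 0.0969 and 0.0676, and leaving out a mouse gave between 0 calls in this list (without control mouse 4, 5 or 6, or BIBB-515 mouse 6, 9, 10 or 11) and 6 (without control mouse 3). Of 22 tested ChREBP genes, 0 were higher and 1 lower, which is 4.55% called beside 13.7% of all tested genes. Among the 22, 19 were below zero, and the median log2 fold change was -0.26. The called gene was Pklr, the liver pyruvate kinase, from 765 ± 309 CPM to 414 ± 86.9 CPM (SD, n = 6 each), at -0.89 (FDR 0.0194, edgeR). At an unadjusted p under 0.05 with edgeR, 1 was higher and 5 lower, beside 3713 of the 12481 tested genes in either direction. Without control mouse 2, 3 or 5, 2 genes of this list were called.

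Of 28 tested genes of the integrated stress response, the ATF4 pathway, 7 were higher and 0 lower with edgeR, which is 25% called beside 13.7% of all tested genes, and the median log2 fold change was 0.03, with 15 above and 13 below zero. At an unadjusted p under 0.05 with edgeR there were 9 higher and 2 lower, beside 3713 of the 12481 tested genes in either direction. Trib3, a pseudokinase induced by ATF4 and CHOP, went from 5.54 ± 1.40 CPM to 14.7 ± 1.30 CPM (SD, n = 6 each), a log2 fold change of 1.40 (FDR 1.25e-05, edgeR), and Shmt2, the mitochondrial serine hydroxymethyltransferase, had one of 0.43 (FDR 0.00031). Both were without overlap between diets. Cebpb, a C/EBP transcription factor, and Stbd1, a starch-binding protein, had log2 fold changes of 0.60 (FDR 0.018) and 0.46 (FDR 0.00693), and Cth, Sesn2 and Sars were the other 3 called genes. Atf4 itself at -0.01, Ddit3, which encodes CHOP, at -0.05 and the ATF4 target Asns at 0.05 had FDRs of 0.918, 0.803 and 0.947 with edgeR. Without control mouse 6, BIBB-515 mouse 6 or BIBB-515 mouse 11, 4 genes of this list were called.

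**Figure D4:**
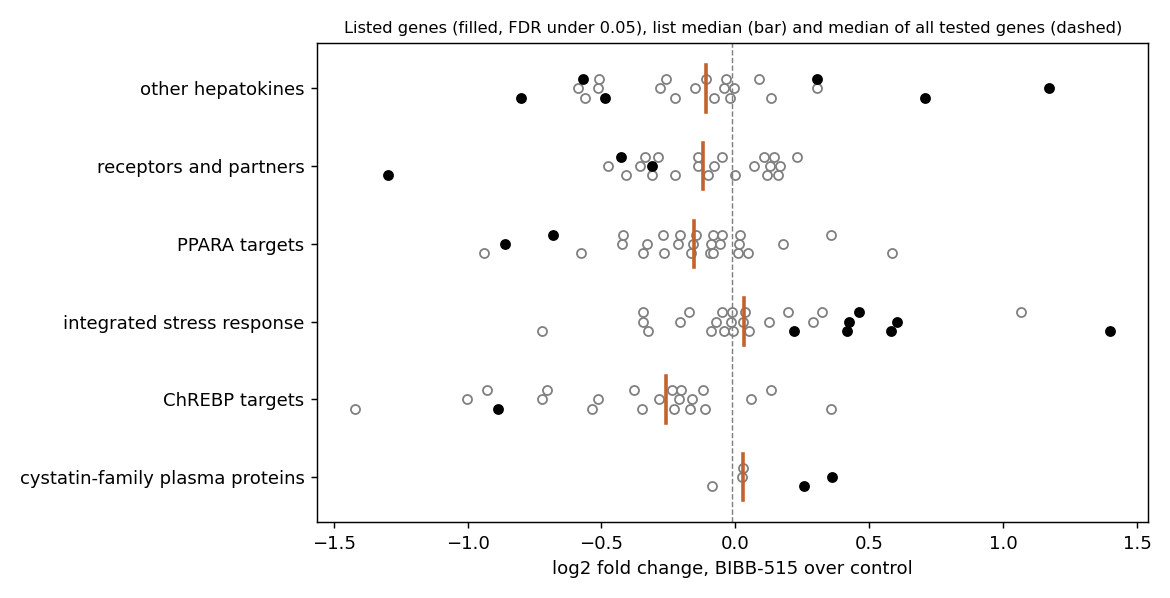
Each circle is 1 tested gene of a list, placed by its log2 fold change, BIBB-515 over control, and filled where the FDR was under 0.05. Orange bars mark the list medians, from -0.26 for the ChREBP genes to 0.03 for the integrated stress response and cystatin-family lists, and the dashed line marks the median of all tested genes at -0.01.

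Fgf21 and Angptl4 are also expressed by other tissues, so markers of fat and exocrine pancreas were examined. Of 12 pancreas markers, 2 were tested and 5 were at 0 in every library (Cela3b, Pnlip, Prss2, Amy2a5 and Rnase1), and their summed level ran from 11.5 to 22.6 CPM in the control mice and from 9.42 to 10.6 CPM with BIBB-515. The sum was mostly Cela1, which is also expressed outside the pancreas and fell by 0.56 on the log2 scale (FDR 0.0365, edgeR) in the same direction as Fgf21. The other tested pancreas marker was at -0.79 (FDR 0.0783, edgeR), so 50% were called beside 13.7% of all tested genes. With limma-voom 0 were called and with the likelihood ratio test 2. The part of these markers in the Fgf21 difference was not tested. Of 8 fat markers, 2 were tested, Lep was at 0, Adipoq had at most 1 count, and the summed level ran from 21.7 to 25.4 CPM in the control mice and from 24.9 to 29.5 CPM with BIBB-515. The called fat marker was Lipe at 0.27 (FDR 0.0331), which is 50% called beside 13.7% of all tested genes. The part of Lipe in the Angptl4 values was not tested.

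Between mice on the same diet, the genes most like each hepatokine gene were found by the Pearson correlation of diet-centred log2 CPM over 12 mice, among the 11169 genes whose average log2 CPM reached 1. Fgf21 was closest to Zfp189 at 0.87, Agtr1a at 0.86 and Cyp2j9 at 0.82. Gdf15 was closest to the immediate-early genes Ier2 at 0.90 and Jun at 0.88 and to Saa2, a serum amyloid, at 0.87. Inhbe was closest to Chrna2 at 0.96, Tor1b at 0.95 and Decr1 at 0.94, and Inhbc to Csad at 0.98, Acat1 at 0.97 and Adtrp at 0.96. Angptl4 was closest to Grpel1, Zswim7 and Nfkbia, between 0.94 and 0.95. For Lect2 the nearest were Rps19bp1, Thpo and Fam25c, between 0.92 and 0.93. For Ahsg they were Bst2, Mrps7 and Nop16, between 0.92 and 0.94, and for Fetub Ifnar2, Srsf9 and Kbtbd3, between 0.92 and 0.93. These values are descriptions that share libraries and scaling. Of the genes closest to Fgf21, Agtr1a, which encodes an angiotensin receptor, had a log2 fold change of -0.35 (FDR 0.00136), and of those closest to Gdf15, Ier2, Jun and Saa2 had log2 fold changes of 0.05, 0.64 and 0.82, none of them called.

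Whether Fgf21, Gdf15, Inhbe and Angptl4 followed the mean log2 CPM of the PPAR-alpha, ChREBP and integrated stress response lists was asked within each diet, which gave 24 relations over 6 mice each. After Benjamini-Hochberg adjustment, 0 of the 24 passed 0.05 with a two-sided exact permutation test of either correlation, and the smallest adjusted p was 0.0933 for Pearson and 0.1 for Spearman. With 6 mice there were only 720 pairings. For Spearman's rho without ties the smallest possible exact permutation p was 0.00278, too large for a single relation to pass alone after adjustment over 24. The lack of a pass therefore does not show that these genes were unrelated to the lists. Before adjustment, 7 Pearson and 5 Spearman correlations had an exact permutation p under 0.05. Inhbe and the PPAR-alpha list had a Pearson r of 0.88 in the control mice (exact permutation p = 0.0167, adjusted 0.0933) and 0.91 in the BIBB-515 mice (exact permutation p = 0.0111, adjusted 0.0933), with Spearman's rho of 0.83 (adjusted 0.233) and 0.94 (adjusted 0.1). Without the 2 mice farthest from the median of the list, these Pearson values were 0.46 and 0.84. The Pearson r farthest from zero was -0.95, of Inhbe with the integrated stress response list in the BIBB-515 mice (exact permutation p = 0.00833, adjusted 0.0933), with -0.82 in the control mice (exact permutation p = 0.05, adjusted 0.15). Inhbe and the ChREBP list had an r of -0.88 in the control mice (exact permutation p = 0.0194, adjusted 0.0933) and -0.54 in the BIBB-515 mice (exact permutation p = 0.244). In the BIBB-515 mice, Angptl4 had an r of 0.93 with the stress list (exact permutation p = 0.0125, adjusted 0.0933), 0.83 with the ChREBP list (exact permutation p = 0.0375, adjusted 0.148) and -0.67 with the PPAR-alpha list (exact permutation p = 0.128). In the control mice these were 0.18, -0.19 and 0.47. Fgf21 and the PPAR-alpha list had an r of 0.63 in the control mice (exact permutation p = 0.189) and 0.06 in the BIBB-515 mice (exact permutation p = 0.893). With the ChREBP list, Fgf21 had an r of 0.81 in the BIBB-515 mice (exact permutation p = 0.0431, adjusted 0.148) and -0.49 in the control mice (exact permutation p = 0.306). That 0.81 became -0.95 without the 2 farthest mice. Gdf15 had no exact permutation p under 0.05 with any list. Without the 2 farthest mice the sign changed in 8 of the 24 relations, those of Fgf21 with the PPAR-alpha list in both diets among them.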

How the data were processed

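Liver RNA-seq libraries of 12 mice were analysed, 6 per diet, grouped by the diet in their labels. The authors deposited whole-number counts of reads per gene, per exon and per transcript and, in a further table, counts of primary alignments that include reads on several genes. Per the file headers these were made with featureCounts of Subread 1.6.3 on mm10, without a strand option, and the submitters' processing notes name STAR 2.5.3a. The gene counts leave out multi-mapped reads and reads on more than one gene, which lowers genes with copies or overlapping neighbors. Transcript counts were not used, and exon counts were scaled by the gene table's factors.

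Counts were filtered at 1 CPM in 2 of 12 samples, the 10% rule the study gives for its human tissues, TMM-normalized and fitted in edgeR 4.0.16 under R 4.3.3 (glmQLFit, glmQLFTest) with no term besides diet. P-values were adjusted over all tested genes, and no set test was run. Log2 CPM used a prior count of 2. Alternatives were DESeq2 1.42.0, limma-voom (limma 3.58.1), the likelihood ratio test, upper-quartile factors, no filter, 1 CPM in 6 samples, primary alignments, 1 surrogate variable (sva 3.50.0) and each mouse left out. Promoter windows came from RefSeq (GRCm38.p6), and 50-base words from GENCODE vM21 transcripts. P-values measure the spread between mice, each taken as a unit. The study housed several mice per cage, and the sample labels do not name the cage. A spread between cages could therefore not be measured.

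Genes named are the 8 hepatokine genes, at most 4 called genes with the lowest FDR per list (none called, the lowest p), marker genes at or near 0 and Ass1, the 3 genes most like each hepatokine gene, and genes named for their role or position, which were picked out after their values were seen (Fut1, Orm1, Fgl1, Angptl8, Klb, Fgfr4, Gfral, Cth, Sesn2, Sars, Atf4, Ddit3, Asns). The hepatokine genes and the lists were chosen with earlier results of these data known, and 1 gene counted in a list is not reported here by name.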

Additional observations from a re-analysis of the deposited data

Results flagged for a closer look

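Each diet group of 6 was checked, for the hepatokine genes, the named genes of the pathway lists and the total counts, for an extreme mouse whose gap to the next one filled more of the range than Dixon's 95% critical value allows. This was so in 4 of 50 groups, where chance gives about 1 in 20, or 2.5. Gdf15 had a gap of 0.682 of the range in the control mice, where mouse 2 stood at 3.98 CPM and the next at 2.34 CPM. Shmt2 had one of 0.741, with control mouse 6 lowest at 199 CPM and the next at 226 CPM. Acvr2a had one of 0.672, with control mouse 1 highest at 27.9 CPM and the next at 23.6 CPM. Cstb had one of 0.690, with BIBB-515 mouse 11 highest at 37.7 CPM and the next at 32.7 CPM. Gdf15 and Shmt2 kept their calls in each of the 12 fits that left out a mouse, whereas Acvr2a and Cstb each lost theirs in some.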

How the results depend on the processing

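Across 8 alternatives that kept all 12 mice and 12 that each left out 1, no log2 fold change of a hepatokine gene changed sign, and Fgf21, Gdf15, Inhbc and Ahsg stayed past an FDR of 0.05 in every one. Leaving out a mouse gave 4 to 5 called hepatokine genes of 8 and 1199 to 1865 called genes in all, and the other alternatives gave 1489 to 2436. The called number of receptors and partners, 3 as reported, was 6 with DESeq2, 6 with the likelihood ratio test and 5 with 1 surrogate variable, and 1 to 5 without a mouse. That of PPAR-alpha genes, 2 as reported, was 0 with limma-voom and 6 with 1 surrogate variable, and 0 to 6 without a mouse. That of ChREBP genes, 1 as reported, was 2 with DESeq2, 2 with the likelihood ratio test and 6 with 1 surrogate variable, and 1 to 2 without a mouse. Leaving out a mouse gave 4 to 9 integrated stress response genes, 5 to 9 other hepatokines and 1 to 2 cystatin-family genes. The cause of these shifts was not tested. No paired analysis was possible because the diets share only replicate number 6. The alternative of 4 mice for the relations within a diet gave correlations and no adjusted p. The lowest libraries held 51 reads for Fgf21 and 39 for Gdf15, against 355 for Inhbe and 628 for Inhbc, whose standard errors of 0.30 and 0.26 were close to the 0.26 of Fgf21.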
